A study of Homo sapiens with 14 samples.

Results

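The integrated stress response genes described here are ATF4, ATF5, CEBPB, DDIT3, PPP1R15A, TRIB3, ASNS and CHAC1. They were chosen by symbol, by a rule that uses no measured value, although earlier results of these data were known at the choice. They are 8 of the 60876 genes into which the deposited transcript values could be summed. MDA-MB-231, an established breast cancer line of human origin and mesenchymal character, was the source of RNA for 14 libraries that form 7 groups of 2. One group was a control, and the others were treated with RBI2 or with CX-5461, each at 5 µM and each in groups labelled 10, 30 and 120 min. CX-5461 inhibits RNA polymerase I, which transcribes the rRNA genes, and RBI2 is a small molecule ribosome biogenesis inhibitor. The study describes the control cells as untreated in one place and as given DMSO in another. The time marks carried by the deposited data differ from those in the sample labels, so every time below is the labelled one. The same 2 control libraries stand in all comparisons with the control. The labels number the 2 libraries of a group without saying whether they came from separate cultures, so a p-value measures only the spread between these libraries.

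In the integrated stress response, kinases that sense misfolded protein, amino acid shortage, viral RNA or haem shortage phosphorylate the translation factor eIF2. General translation then slows, while the mRNAs of ATF4, ATF5, DDIT3 and PPP1R15A, which carry short upstream reading frames, are translated relatively better. ATF4 protein in turn drives transcription of genes for amino acid supply and redox balance, and PPP1R15A closes the loop by bringing a phosphatase to eIF2. RNA levels therefore show the transcriptional side of this pathway, and neither eIF2 phosphorylation nor translation was measured.

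The promoters of these genes carry known kinds of regulatory element, and the stretches below are shown because they hold the element type through which ATF4 acts on its targets, a CRE, which bZIP factors bind, or the elements next to the start of ATF4 itself. Windows of 300 bases around the start sites were taken from RefSeq (GRCh38.p14), in which all 8 genes had between 1 and 3 windows, and were searched on both strands. The composite site for ATF4 and C/EBP factors was searched as TGATGNAA, the cyclic AMP response element (CRE) as TGACGTCA, the E-box as CACGTG and the TATA box as TATAAA, and none of the matches in these genes overlapped a match of another motif. Each sequence is written 5′ to 3′ on the strand of its gene, with the match in capitals:
ATF4 E-box, chr22:39520465-39520494, plus strand: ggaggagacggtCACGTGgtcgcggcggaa
ATF4 TATA box, chr22:39520520-39520549, plus strand: agagacgaagtcTATAAAgggccggcgggc
ASNS composite site, chr7:97872458-97872487, minus strand: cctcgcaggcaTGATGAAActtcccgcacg
CHAC1 composite site, chr15:40953251-40953280, plus strand: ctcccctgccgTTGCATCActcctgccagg
PPP1R15A CRE, chr19:48872352-48872381, plus strand: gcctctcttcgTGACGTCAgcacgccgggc

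The composite site was found at position -68 from the RefSeq start of ASNS and, on the opposite strand, at position -209 of CHAC1. It occurred in 3.62% of the 35116 RefSeq windows. The CRE lay at position -58 of PPP1R15A and occurred in 1.85% of windows, and the E-box lay at position -85 of ATF4 and occurred in 7.26%. TATAAA was found before ATF4, CEBPB and PPP1R15A, and in 11.5% of all windows. Counted by gene, over 27305 genes with 1 window or more, the composite site was found in 4.46%, the CRE in 2.25%, the E-box in 8.77% and TATAAA in 14%. All 5 stretches share at least 1 base with an annotated GENCODE exon, and whether they lie wholly inside it was not recorded. Those of ATF4 overlap the longer transcript ATF4-203, whose start is upstream of that of ATF4-202. The stretch of ASNS overlaps ASNS-201, ASNS-205 and ASNS-211, that of CHAC1 CHAC1-201 and that of PPP1R15A PPP1R15A-202. A match is a description of letters only, and the absence of a match in the other genes says only that these letters are not in the window.

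The 14 libraries held between 14112299 and 24849354 estimated reads. The second control library stood apart from all others. It carried 20.4% mitochondrial reads against 8.05% to 11.2% elsewhere, and 812 of 15426 genes differed more than 2-fold between the 2 control libraries against 194 to 265 genes within the treated groups. Of the mesenchymal markers VIM, at 2080 to 2690 TPM (a level per length of transcript, scaled to a fixed library total), CD44, AXL, CAV1 and MSN were high, EGFR reached 17.4 to 37.8 TPM, and ESR1, PGR and CDH1 were at most 0.285 TPM. ERBB2 (14.8 to 22.9 TPM) and EPCAM (11.4 to 22.4 TPM) were not absent. Of the markers of leukocytes, endothelium and fibroblasts, COL1A1 was the highest at 0.675 to 2.16 TPM.

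All 8 genes passed the filter on low counts. Levels between genes are compared per length, in TPM. ATF4 had the highest median over the 14 libraries, 210.5 TPM, followed by PPP1R15A at 106 TPM, CEBPB at 45.5 TPM, ASNS at 36.55 TPM, ATF5 at 29.5 TPM, DDIT3 at 20.1 TPM, TRIB3 at 10.5 TPM and CHAC1 at 1.83 TPM. Neighbours in this order overlapped in their ranges over the libraries, CEBPB (29.1 to 58.3 TPM) and ASNS (21.5 to 57.1 TPM) almost entirely, with 2 exceptions. The whole range of PPP1R15A (69.4 to 129.9 TPM) lay above that of CEBPB, and that of TRIB3 (4.66 to 13.1 TPM) above that of CHAC1 (0.561 to 2.52 TPM). ATF4 overlapped PPP1R15A only through the second control library, at 67.6 TPM. The ranges of DDIT3 and TRIB3 overlapped, although DDIT3 was the higher within each library. Below, levels are CPM, counts scaled to a fixed library total with TMM factors, which compare 1 gene between libraries. In bulk RNA, fewer cells that express a gene and less RNA per cell cannot be told apart.

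Most of these genes changed little. Over the 14 libraries, the highest CPM was 1.31 times the lowest for ASNS, 1.49 times for both ATF5 and PPP1R15A, 1.60 times for ATF4, 1.80 times for DDIT3, 1.81 times for CEBPB, 2.04 times for TRIB3 and 3.65 times for CHAC1. For TRIB3, CHAC1, PPP1R15A and CEBPB the lowest of all 14 values was that of the second control library. Among the 12 treated libraries alone the ratio for TRIB3 was 1.27 and that for CEBPB 1.21, while PPP1R15A kept 1.48 and CHAC1 2.16.

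**Figure D1:**
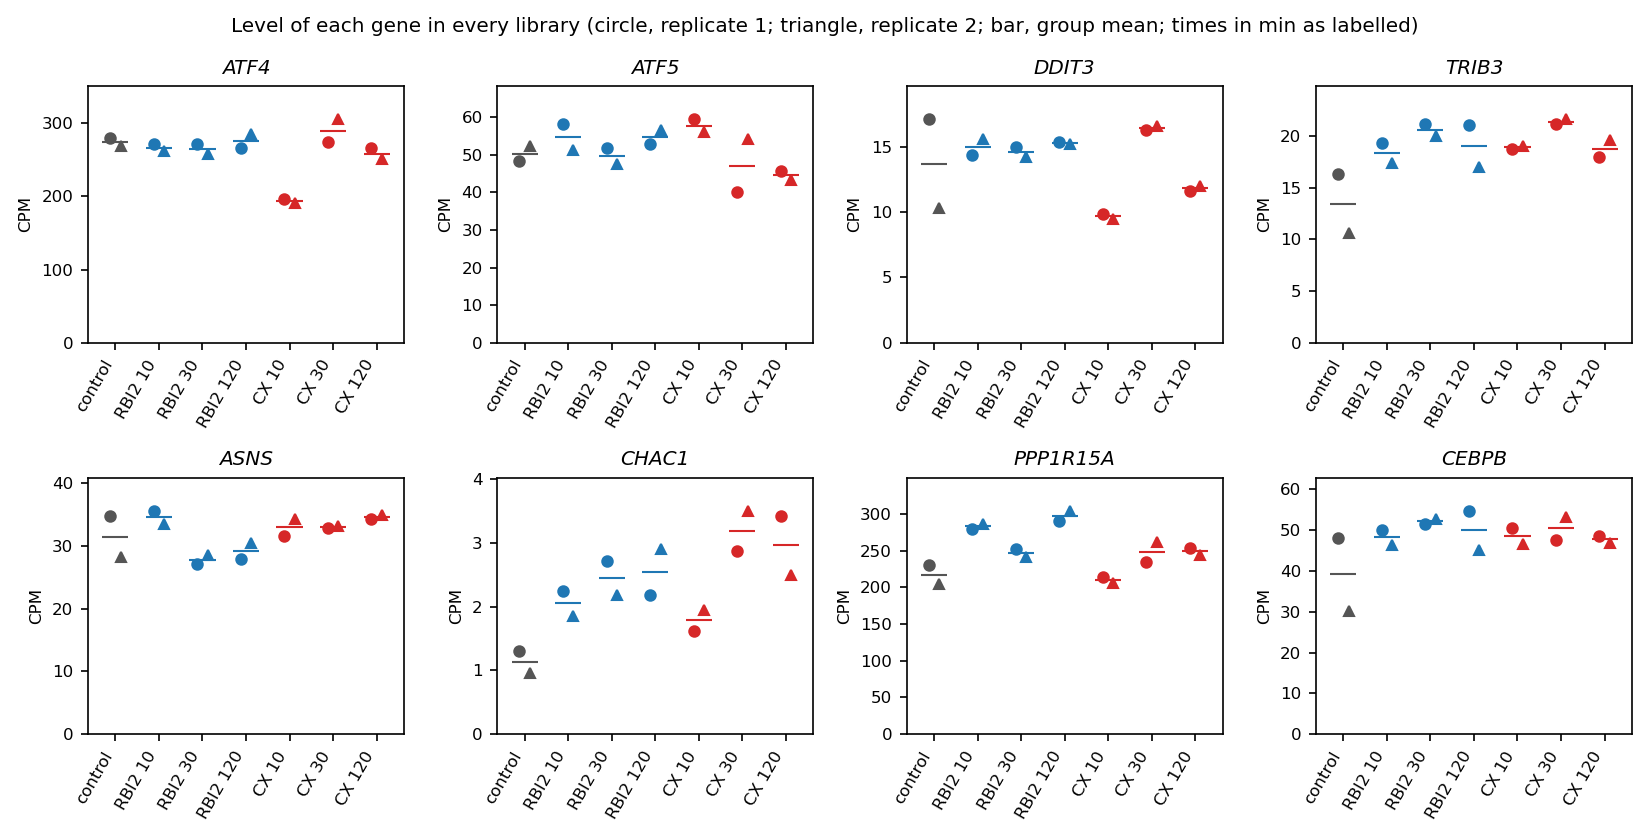
Level of each of the 8 genes in every library, in CPM after TMM scaling on axes that start at 0, with circles for replicate 1, triangles for replicate 2 and a bar at the group mean (CX, CX-5461; times in min as labelled). ATF4 and DDIT3 were low in both libraries of CX-5461 labelled 10 min, and the 2 control libraries lay far apart for DDIT3, TRIB3 and CEBPB.

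ATF4, the bZIP transcription factor at the centre of the response, was steady except in 1 group. In CPM, the control libraries were at 279.9 and 269, and the RBI2 libraries at 271 and 262 (labelled 10 min), 272 and 258 (30 min) and 266 and 286 (120 min). The CX-5461 libraries were at 196 and 191 (10 min), 274 and 305 (30 min) and 266 and 251 (120 min). Both libraries of CX-5461 labelled 10 min lay below the 12 other libraries, which did not separate by compound. Against the control, ATF4 fell by 0.51 on the log2 scale in this group (SE 0.0746, edgeR's quasi-likelihood test, adjusted p = 0.00396), a fold of 0.704 that stays within the 2-fold limit used for calls. The 3 labelled CX-5461 groups differed among themselves, with 0.58 between the highest and the lowest group on the log2 scale (adjusted p = 0.00499), a contrast among treated groups that did not pass with an offset for transcript length (0.58, adjusted p = 0.410). Leaving out either library of CX-5461 labelled 10 min raised the adjusted p of the difference from the control to 0.0658 or 0.0972, and a fit to the groups compared alone to 0.334.

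The ATF4 reads of the second control library were divided among transcripts in another way. ATF4-202 held 44.2% of the gene's reads in that library and 77.1% to 81.1% in the 13 others, and ATF4-203, the longer form that begins upstream, held 51.5% against 11.04% to 21.0%. The effective length of the gene, which Salmon computes after bias correction and averages here over transcripts, was 3672 bases there against 1678 to 1902 bases elsewhere. In TPM, ATF4 stood at 67.6 in the second control library and at 212 in the first, although their CPM differed by a factor of 1.04. With an offset for transcript length in the fit, the difference of CX-5461 labelled 10 min from the control was -0.04 (adjusted p = 0.946). With that offset and without the second control library, an alternative added after seeing the data, it was -0.53 (adjusted p = 0.0126). The size of the fall against the control thus depends on whether length is entered while that library is kept.

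**Figure D2:**
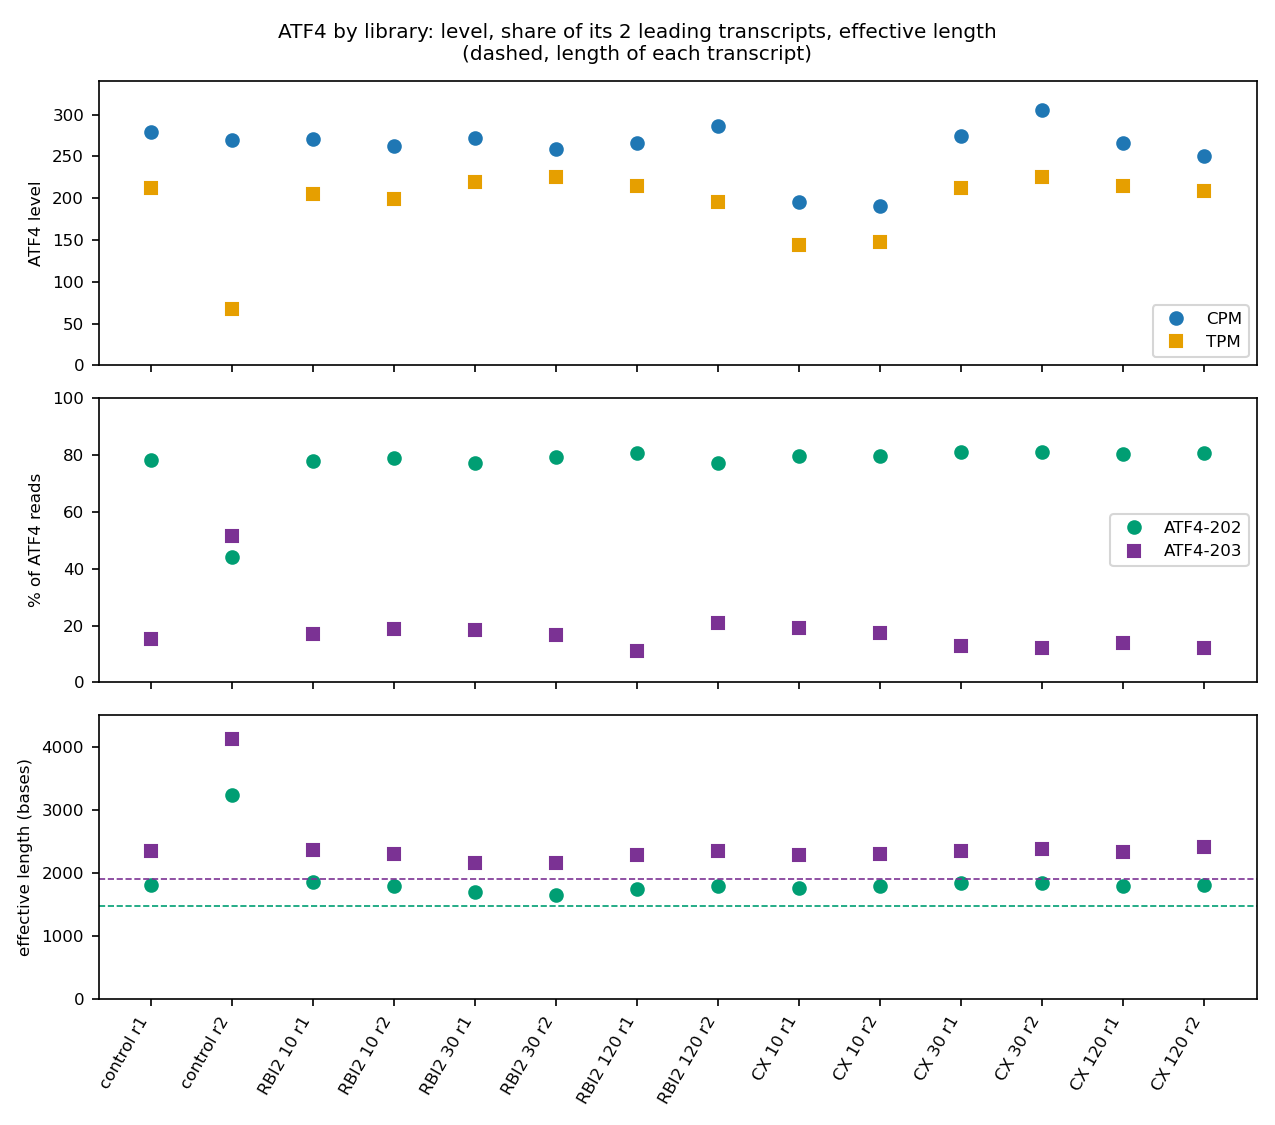
ATF4 in each of the 14 libraries, with its level in CPM and TPM (top), the percentage of its reads on the transcripts ATF4-202 and ATF4-203 (middle), and their effective length in bases, with the annotated lengths dashed (bottom; r1 and r2, replicates). The second control library alone had a low TPM (67.6), more ATF4-203 (51.5%) than ATF4-202 (44.2%) and long effective lengths, while its CPM (269) was like that of the first.

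DDIT3, the factor CHOP that acts late in unresolved stress, showed the same order of groups under CX-5461 as ATF4. Its level was 17.1 and 10.3 CPM in the control, 9.86 and 9.51 CPM in CX-5461 labelled 10 min, 16.3 and 16.6 CPM at 30 min and 11.7 and 11.99 CPM at 120 min. The RBI2 libraries lay between 14.2 and 15.6 CPM in all 3 groups. Within treated groups the replicates were close, and the 2 control values were 1.66 times apart. DDIT3 passed in none of the 9 pairwise comparisons, and the difference across the labelled CX-5461 groups had an adjusted p of 0.0965 in edgeR and passed in DESeq2. The reading of DDIT3 also rests on the division of reads from MARS1 and MBD6, which overlap it on the other strand. MARS1 held 1508 to 3201 reads a library against 129 to 320 for DDIT3. The library kit keeps strand, but the strand setting of the quantification is not given in the sources used here.

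ATF5, a relative of ATF4 that is regulated in the same way, did not pass in any comparison. It was at 48.4 and 52.3 CPM in the control, at 47.5 to 58.3 CPM in the 6 RBI2 libraries and at 40.0 to 59.5 CPM in the 6 CX-5461 libraries. Its widest replicate gap was within CX-5461 labelled 30 min, at 40.0 and 54.2 CPM. NUP62, on the other strand of ATF5, held 2322 to 4179 reads a library. CEBPB, which dimerizes with ATF4 on composite sites, also passed in none. It was at 48.2 CPM in the first control library, 30.2 CPM in the second, and 45.2 to 54.7 CPM in all treated libraries. The first control library thus lay inside the treated range and the second below it.

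PPP1R15A, also known as GADD34, is the stress-induced subunit that directs protein phosphatase 1 to eIF2. Its level in CPM was 230.1 and 205 in the control. With RBI2 it was 280 and 287 (labelled 10 min), 252 and 241 (30 min) and 291 and 304 (120 min). With CX-5461 it was 213 and 205 (10 min), 234 and 261 (30 min) and 253 and 244 (120 min). The RBI2 groups labelled 10 and 120 min lay above every control and CX-5461 library, and the RBI2 libraries labelled 30 min lay among those of CX-5461. Against the control, PPP1R15A rose by 0.45 on the log2 scale in RBI2 labelled 120 min (SE 0.0790, adjusted p = 0.00983), a fold of 1.37. It was higher with RBI2 than with CX-5461 by 0.44 at the label 10 min (SE 0.0788, adjusted p = 0.0131) and by 0.26 at 120 min (SE 0.0786, adjusted p = 0.0494). The last of these was lost in 14 of 21 alternatives, among them DESeq2's size factors in edgeR (adjusted p = 0.0504), no filter on low counts (0.0998), the replicate number as a block (0.0658) and most single libraries left out (up to 0.239). The difference at the label 10 min was lost in 7 of 21 alternatives, each of them a library left out. Besides the libraries compared, these were single libraries of CX-5461 labelled 120 min and of RBI2 labelled 30 and 120 min. The rise against the control was lost without either library of RBI2 labelled 120 min. It was also lost with the offset for transcript length (adjusted p = 0.0613) and with only the groups compared in the fit (0.301).

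CHAC1, a glutathione-degrading enzyme and a well-known target of ATF4, had the largest changes against the control and the lowest level. It was at 1.31 and 0.959 CPM in the control, which are 21 and 12 reads. With RBI2 it was 2.25 and 1.85 CPM (labelled 10 min), 2.71 and 2.18 CPM (30 min) and 2.18 and 2.90 CPM (120 min). With CX-5461 it was 1.62 and 1.95 CPM (10 min), 2.86 and 3.50 CPM (30 min) and 3.42 and 2.49 CPM (120 min). All 12 treated libraries lay above both control libraries, at 30 to 84 reads each. In RBI2 labelled 120 min the rise of 1.14 on the log2 scale passed both limits (SE 0.288, adjusted p = 0.0271), a fold of 2.20. In the CX-5461 groups labelled 30 and 120 min the means of 3.18 ± 0.449 and 2.96 ± 0.659 CPM (SD, n = 2) were higher than the 2.54 ± 0.506 CPM of RBI2 labelled 120 min, and did not pass, in comparisons in which 0% and 0.0778% of all genes had an adjusted p under 0.05. No direct comparison of the compounds passed for CHAC1. Without the second control library the rise was 0.94 (adjusted p = 0.121), and without either library of RBI2 labelled 120 min its adjusted p was 0.0850 or 0.128. It was also lost with the offset for transcript length (adjusted p = 0.0893) and with only the groups compared in the fit (0.301).

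TRIB3, a pseudokinase induced by ATF4 that restrains it in turn, was at 16.3 and 10.6 CPM in the control. The RBI2 libraries lay between 17.0 and 21.2 CPM and the CX-5461 libraries between 18.0 and 21.6 CPM. Every treated library was above both control libraries, no pairwise comparison passed, and the compounds overlapped at all 3 labels. ASNS, which makes asparagine and is a classical target of ATF4, was at 34.7 and 28.2 CPM in the control. With RBI2 it was 35.6 and 33.6 CPM (labelled 10 min), 27.1 and 28.5 CPM (30 min) and 27.9 and 30.4 CPM (120 min), and with CX-5461 it lay between 31.6 and 34.9 CPM. At the labels 30 and 120 min both RBI2 libraries were below both CX-5461 libraries, and neither difference passed. At 30 min 4 of the 8 genes lay lower in this way and none higher. At 120 min 1 lay lower and 4 higher. The share of all genes is not given for this, so it is no trait of ASNS. Its reads were spread over many transcripts, and the division differed between libraries. The coding transcript ASNS-214 held 42.7% to 80.4% in 12 libraries and 0% in the second control library and the second library of RBI2 labelled 10 min, where ASNS-206 held 55.3% and 52.5%. ASNS-213, annotated as subject to nonsense-mediated decay, held 0% to 42.7%.

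As a list, the 8 genes gave few passing differences. For a call, a gene needed an adjusted p under 0.05 over all genes and a change of 2-fold or more in either direction. Against the control 1 of 8 was called in RBI2 labelled 120 min, CHAC1, where 1.82% of all genes were called and 1.42% were called as higher, and with the adjusted p alone 2 of 8 passed, both higher, where 18.0% of all genes did and 8.90% were higher. At an unadjusted p under 0.05, 3 of 8 passed there, where 35.9% of all genes did. None of the 8 was called in RBI2 labelled 10 min (0.0778% of all genes called), RBI2 labelled 30 min (0.0389%, or 0.0713% with the adjusted p alone), CX-5461 labelled 10 min (1.64%), CX-5461 labelled 30 min (0%) or CX-5461 labelled 120 min (0.0454%). DESeq2 also called none of the 8 in these 5 comparisons, and at an unadjusted p under 0.05 without a limit on the fold 3, 4, 3, 3 and 3 of the 8 passed, where 12.9%, 25.8%, 22.5%, 22.9% and 12.4% of all genes did. With the adjusted p alone ATF4 passed in CX-5461 labelled 10 min, where 4.77% of all genes did and 2.98% were lower.

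The direction against the control is described by counts and was not tested. Both treated libraries lay above both control libraries for 3, 4 and 4 of the 8 genes in RBI2 labelled 10, 30 and 120 min, where 18.2%, 26.3% and 27.2% of all genes did, and none of the 8 lay lower in both, where 16.2%, 25.0% and 27.7% did. For CX-5461 this held for 3 of 8 genes at each label, where 23.0%, 19.8% and 19.4% of all genes did, and 2, 0 and 2 of 8 lay lower at 10, 30 and 120 min, where 24.0%, 20.0% and 13.7% of all genes did. The median log2 fold change of the 8 genes was between 0.13 and 0.25 in the 6 comparisons with the control, beside medians of all genes between -0.05 and 0.06. These comparisons share the control libraries, and the second of them had the lowest value for 4 of the 8 genes.

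**Figure D3:**
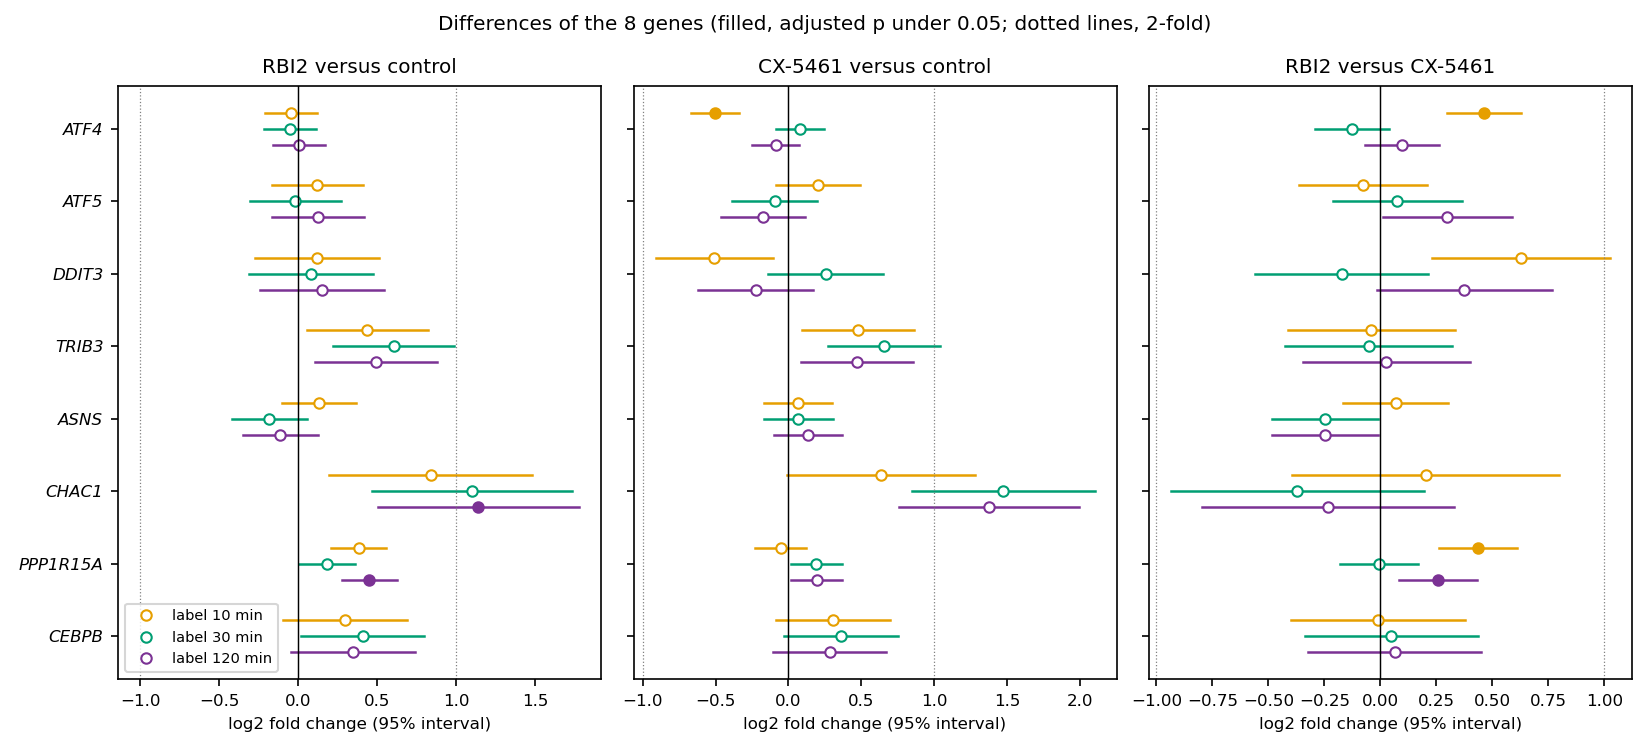
Log2 fold changes of the 8 genes with 95% intervals from edgeR, for RBI2 against the control, CX-5461 against the control and RBI2 against CX-5461, each at the 3 labelled times (filled circles, adjusted p under 0.05; dotted lines, 2-fold). Of the 72 estimates 6 have an adjusted p under 0.05, and CHAC1 in RBI2 labelled 120 min is the one among them past the 2-fold line.

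The compounds were given at the same concentration and can be set against each other at each label, with the control libraries entering only the estimate of the spread. Of 24 gene comparisons, 3 had an adjusted p under 0.05, all higher with RBI2, and none reached 2-fold. At the label 10 min these were PPP1R15A, given above, and ATF4, which was 0.46 higher on the log2 scale with RBI2 (SE 0.0745, adjusted p = 0.00714). With the adjusted p alone this is 2 of 8 genes, where 3.06% of all genes passed and 2.23% were higher, and 1.04% of all genes were called with the 2-fold limit. At the label 30 min none of the 8 passed, as for nearly all genes (0.0130% called), and their log2 fold changes lay between -0.37 and 0.08. At the label 120 min PPP1R15A alone passed, 1 of 8 genes where 16.1% of all genes passed, 5.28% were higher and 1.67% were called, and the 8 lay between -0.25 and 0.37. DESeq2 also gave these 3 differences an adjusted p under 0.05 and none past 2-fold, and at an unadjusted p under 0.05 in edgeR 3, 1 and 3 of the 8 passed, where 14.2%, 7.79% and 31.6% of all genes did. For ATF4 at the label 10 min, leaving out any of the 4 libraries compared raised the adjusted p to between 0.0532 and 0.161, and the offset for transcript length raised it to 0.664, while the difference stayed between 0.43 and 0.49 in all 21 alternatives.

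Across the 3 labels of 1 compound, any difference among the treated groups was tested, with the control libraries entering only the estimate of the spread. With CX-5461, ATF4 was the 1 of 8 genes that passed, where 2.87% of all genes did, and with RBI2 none of the 8 passed, where 1.67% of all genes did. At an unadjusted p under 0.05, 5 of 8 genes passed with CX-5461 and 2 of 8, ASNS and PPP1R15A, with RBI2, where 21.7% and 18.8% of all genes did. DESeq2 called ATF4 and DDIT3 with CX-5461 and none with RBI2. The median range of the 8 genes across labels was 0.31 with CX-5461 and 0.15 with RBI2 on the log2 scale, beside 0.31 and 0.28 over all genes.

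Of the further genes in 7 lists around this pathway, 96 were tested, and ALDH1L2, CBS, FGF21, GDF15 and INHBE did not pass the filter. CX-5461 labelled 10 min was the one group with calls against the control. ATF3, SESN2 and DNAJB9 were called as higher and XBP1 as lower, where 0.752% of all genes were called as higher and 0.888% as lower. CEBPA, a C/EBP factor, was also higher, with 6 and 7 reads in the control and 45 to 59 in this group. It passed the filter on low counts (0.62 CPM in at least 2 libraries) through this group, with 1 library of any other group above that level. It is therefore given as a description with no test. ATF3, a stress-induced repressor and target of ATF4, rose by 1.66 on the log2 scale (SE 0.176, adjusted p = 0.000428), from 5.16 ± 0.968 to 16.5 ± 1.57 CPM (SD, n = 2). SESN2, which couples stress to mTORC1, rose by 1.29 (SE 0.203, adjusted p = 0.00546), and DNAJB9, an ER chaperone cofactor, by 1.12 (SE 0.131, adjusted p = 0.000784). XBP1, the factor of the IRE1 arm, fell by 1.86 (SE 0.410, adjusted p = 0.0279), from 26.7 ± 8.07 to 7.29 ± 1.58 CPM. ATF3, SESN2 and DNAJB9 were thus higher in the group in which ATF4 mRNA was lowest. The differences of ATF3 and DNAJB9 passed with any library left out, that of SESN2 did not without the first library of CX-5461 labelled 10 min (adjusted p = 0.0562) and was under 2-fold without the second control library (0.97), and that of XBP1 did not pass without the second control library (adjusted p = 0.144) or either library of CX-5461 labelled 10 min, nor without some RBI2 libraries or with protein-coding transcripts alone (adjusted p = 0.0547). With only the 4 libraries of the groups compared in the fit, none of these 4 differences passed (ATF3, adjusted p = 0.188).

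In the direct comparison at the label 10 min, DNAJB9, ATF3 and CEBPD of these lists were called, all lower with RBI2. Of all genes, 0.402% were called as lower. The values were -1.16 on the log2 scale for DNAJB9 (SE 0.130, adjusted p = 0.000715), -1.13 for ATF3 (SE 0.168, adjusted p = 0.00439) and -1.04 for CEBPD (SE 0.178, adjusted p = 0.00973). CEBPA, with 4 to 10 reads under RBI2, was also lower and is again given with no test. With the adjusted p alone, PPP1R15B, the constitutive counterpart of PPP1R15A, and the amino acid transporter SLC38A2 were lower in CX-5461 labelled 10 min than in the control (-0.59 and -0.65, adjusted p = 0.0201 and 0.0147) and higher with RBI2 than with CX-5461 (0.74 and 0.75, adjusted p = 0.00810 and 0.00847). At the label 120 min SLC38A2 was lower with RBI2 than with CX-5461 (-0.82, adjusted p = 0.00692), a difference lost in 4 of 21 alternatives. These 2 genes were chosen after their values were seen. With a library left out, DNAJB9 always passed between the compounds, and ATF3 and CEBPD each lost their call without at least 1 of the 4 libraries compared. ATF3 also lost its call between the compounds with the offset for transcript length. At the label 10 min, PPP1R15B and SLC38A2 passed in neither comparison without either library of CX-5461. Between the compounds at this label, SLC38A2 was also lost with the offset for transcript length and without either library of RBI2. PPP1R15B was also lost there without the second library of RBI2. Against the control both were also lost with the offset for transcript length (PPP1R15B -0.38, adjusted p = 0.134, SLC38A2 0.0591) and with the groups compared alone, PPP1R15B without the second control library (0.0650) and SLC38A2 with protein-coding transcripts alone (0.118).

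In RBI2 labelled 120 min none of the 96 genes was called, and with the adjusted p alone 4 were higher and 16 lower, 20.8% of them where 18.0% of all genes passed and 9.07% were lower. Of the 10 bZIP relatives 4 were lower, and the median of that list was -0.42 beside 0.01 over all genes. Of the 20 genes for eIF2 kinases and the eIF2 machinery 1 was higher and 6 lower (median -0.19), and of 13 tRNA synthetases 1 was higher and 4 lower (median -0.19). Of 11 tested genes for amino acid synthesis 1 was lower, of 10 for amino acid transport 1 was higher, of 17 tested stress effectors 1 was lower, and of 16 genes of the IRE1 and ATF6 arms 1 was higher. The widest of the passing differences, named after their values were seen, were those of ATF1 (-0.68, adjusted p = 0.0184) and of GCN1, which activates the kinase GCN2 (0.66, adjusted p = 0.0116). ATF1 lay between -0.34 and -0.94 and was lost in 6 of 21 alternatives, among them protein-coding transcripts alone (adjusted p = 0.0719) and the second control library left out (0.0543), and GCN1 was lost in 4. The number that passed, 20, rose without the first control library. It fell without the second control library and without either library of RBI2 labelled 120 min. It was 0 with the groups compared alone and 1 with the offset for transcript length. The share of all genes that passed in these alternative fits is not given.

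Against CX-5461 at the label 120 min, 1 of the 96 genes was higher and 23 lower with the adjusted p alone, 25% where 16.1% of all genes passed and 10.9% were lower, and none was called. The lower genes included 6 of the eIF2 list, 3 of amino acid synthesis, 2 of transport, 4 tRNA synthetases, 1 stress effector, 4 bZIP relatives and 3 of the IRE1 and ATF6 arms. The number, 24, rose without the first control library. It fell without the second library of CX-5461 labelled 120 min and without either library of RBI2 labelled 120 min. The share of all genes in these fits is not given. The number that passed against CX-5461 at the label 120 min moved in 11 of 21 alternatives. Among them were the offset for transcript length and protein-coding transcripts alone. No gene of the 7 lists passed in RBI2 labelled 10 or 30 min, CX-5461 labelled 30 or 120 min, or between the compounds at the label 30 min, where at most 0.201% of all genes had an adjusted p under 0.05. Without the first control library, genes of the lists passed in each of these 4 comparisons with the control. The share of all genes in that fit is not given, so this is no result about the lists. Across the labels, 6 of 96 genes passed with CX-5461 (2.87% of all genes did), and 2 with RBI2, 2.08% where 1.67% of all genes did. The 6 include CEBPA, which passed the filter on low counts through CX-5461 labelled 10 min. Their number is therefore a description and is not compared with the share of all genes.

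**Figure D4:**
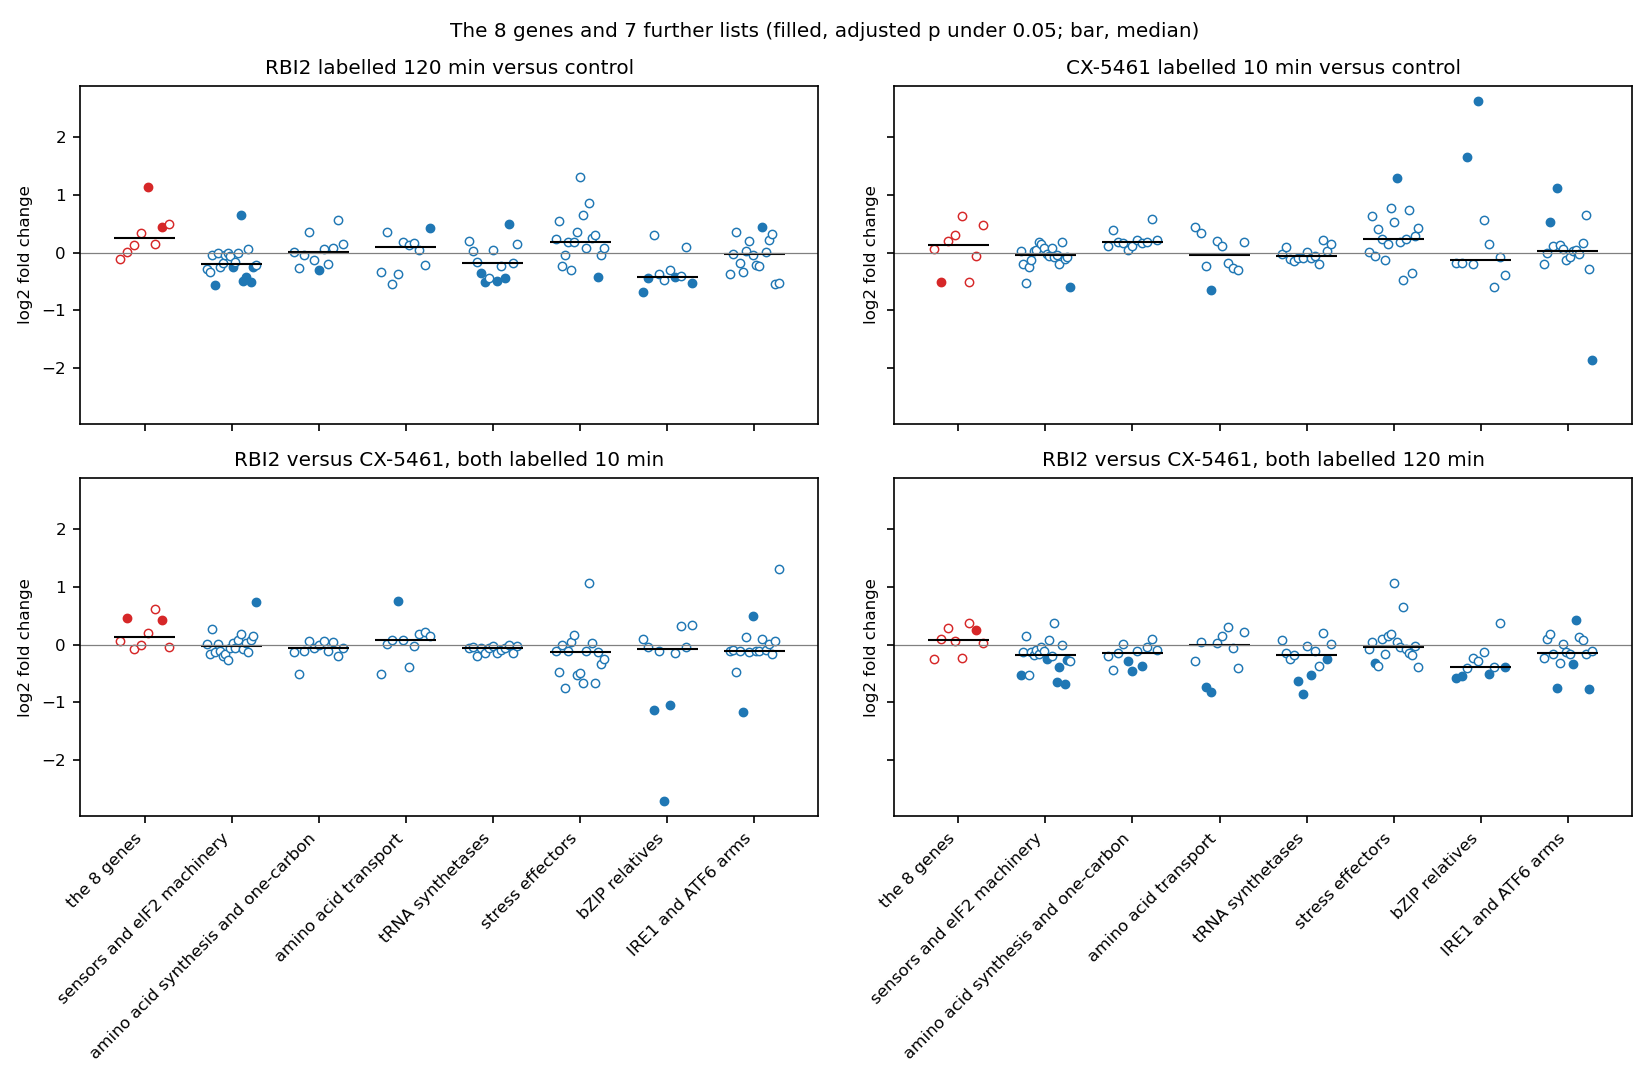
Log2 fold changes of the 8 genes (red) and of the 96 tested genes of 7 further lists (blue) in 4 comparisons, with a bar at the median of each list (filled circles, adjusted p under 0.05). In CX-5461 labelled 10 min single genes stand out, such as ATF3 at 1.66 (the highest point, CEBPA, passed the filter on low counts through this group), while in the comparisons at the label 120 min many small differences pass, mostly below 0.

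The 8 genes did not move as a block over the libraries. Among their 28 pairs the median Pearson r of log2 CPM was 0.14, and 18 pairs were positive. As a description over 14 libraries that share their groups, ATF4 and DDIT3 had r = 0.79, or 0.90 over the 12 treated libraries, and TRIB3 and CEBPB had r = 0.93, or 0.70 over the treated ones. Of the targets of ATF4, over all libraries and over the treated ones, CHAC1 had r = 0.30 and 0.73 with it, TRIB3 -0.03 and 0.23, and ASNS -0.13 and -0.16, while PPP1R15A had 0.57 and 0.76. Among genes with a mean of at least 5 CPM, the one most like ATF4 was IER3 (r = 0.97), and the one most like DDIT3 was IER2 (r = 0.92), both immediate early genes. For the others these were VAMP2 for ATF5 (0.92), ESRRA for CEBPB (0.98), ZNF324 for PPP1R15A (0.91), EVA1A for CHAC1 (0.91), TMEM161A for TRIB3 (0.96) and RAD51AP1 for ASNS (0.90). Each was the highest of 10569 candidates or, for CHAC1, of 10570, so these values are high by selection. Over the 12 treated libraries the same pairs had r between 0.84 and 0.97, with ESRRA and CEBPB at 0.87 and TMEM161A and TRIB3 at 0.84.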

How the data were processed

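Poly(A) RNA of MDA-MB-231 cells was made into stranded libraries. The authors removed reads that aligned to the rDNA repeat and assigned the rest to GRCh38 transcripts with Salmon (version 1.3.0 in the submitters' processing notes). Per transcript, the deposited files of each library hold the estimated counts, not normalized, the TPM values, and the effective length in bases that the authors obtained from Salmon with bias correction. Conditions and times were taken from the sample labels.

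The estimated counts were summed over transcripts of each gene with GENCODE release 44 (225662 of 228754 transcripts matched) and rounded. Library totals ranged from 14112299 to 24849354, with a median of 16305236. In edgeR 4.0.16 (R 4.3.3) libraries were scaled with TMM, filterByExpr with a minimum count of 10 kept 15426 genes, and 1 quasi-likelihood model with 7 groups was fitted to all libraries. Benjamini-Hochberg adjustment ran over all genes tested. A call required an adjusted p under 0.05 together with a log2 fold change of 1 or more in size, or the adjusted p alone across the labels of 1 compound. The biological coefficient of variation was 12.3%.

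The 8 genes and the lists were chosen with earlier results of these data known. A fold change is given for a member where its adjusted p was under 0.05, and of each list up to 3 called genes are named per comparison. Likeness used log2 CPM with a prior count of 2. Alternatives were DESeq2 1.42.0, its size factors in edgeR, no filter, protein-coding transcripts alone, an offset for transcript length, an unadjusted p, no limit on the fold, the replicate number as a block, the groups compared alone, and each library left out in turn. A library left alone in its group was taken to vary like the other groups.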

Additional observations from a re-analysis of the deposited data

Results flagged for a closer look

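One result was selected for a closer look because the labelled groups of 1 compound differed by a direct test. ATF4 differed across the CX-5461 groups labelled 10, 30 and 120 min (edgeR's quasi-likelihood test, adjusted p = 0.00499), with group means of 193 ± 3.68, 289.6 ± 22.03 and 258 ± 10.5 CPM (SD, n = 2). The range between groups was 0.58 on the log2 scale. DESeq2 also passed ATF4, and the test did not pass when either library labelled 10 min was left out (adjusted p = 0.107 or 0.138) or with an offset for transcript length (adjusted p = 0.410). No group held 4 libraries, so single libraries could not be tested as outliers.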

How the results depend on the processing

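None of the 7 passing differences of the members, nor of the 14 differences tested and named for genes of the further lists, changed direction under any alternative run. The offset for transcript length ended 6 of the 7 passing differences, keeping PPP1R15A between the compounds at the label 10 min, a fit to the groups compared alone ended 3, and with 2 libraries a group every one of the 7 was lost when some single library was left out. Counts of called members moved as follows. For most of these alternatives the share of all genes called in the same fit is not given. The counts therefore cannot be told apart from a change in calls over all genes. In RBI2 labelled 120 min versus control, 1 became 0 with the length offset, with or without the second control library, and with the groups compared alone, 2 without the fold limit, and 0 to 1 with a library left out. In RBI2 labelled 30 min and in CX-5461 labelled 120 min, 0 became 1 (CHAC1) without the filter and with an unadjusted p, and 0 to 1 with a library left out. In CX-5461 labelled 30 min it became 1 in both settings and 0 to 2 with a library left out (CHAC1 and TRIB3 without the first control library). Without the fold limit CX-5461 labelled 10 min had 1, and the compounds differed in 2 genes at the label 10 min and 1 at 120 min. Across the RBI2 labels, 0 became 2 (ASNS and PPP1R15A) with an unadjusted p, with the groups compared alone and without either control library (0 to 2). Across the CX-5461 labels, 1 became 2 (ATF4 and DDIT3) in DESeq2, without the filter and with the groups compared alone. It became 0 with the length offset and 5 with an unadjusted p. The count across the CX-5461 labels rose without either control library, for the second also with the length offset. It fell without either library labelled 10 min. Of the further lists, 8 genes passed in CX-5461 labelled 10 min. This number rose without the first control library and fell without the second or without a library of that group. Between the compounds at the label 10 min, 7 passed, more without either control library and fewer without a library compared. That number was 4 with the length offset and 18 with the groups compared alone. The share of all genes that passed in these alternative fits is not given. The number of genes of the further lists that passed in CX-5461 labelled 10 min was 0 with the groups compared alone. It also moved without the filter and with protein-coding transcripts alone. Both main numbers, 8 and 7, count CEBPA. The causes were not tested. Deviations of same-numbered libraries correlated at -0.179 to 0.18 over 21 pairs of groups (median -0.003), with 3 pairs above 0.1. With 2 libraries a group this cannot exclude a pairing by replicate number, which the labels do not state. With the replicate block PPP1R15A between the compounds at the label 120 min was 0.26 (adjusted p = 0.0658), and no count of members moved. CHAC1 had the fewest reads of the 8 genes, 12 to 84 a library.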
